A study of Danio rerio with 8 samples.

Results

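The genes described here are the 4 zebrafish polypyrimidine tract binding protein genes ptbp1a, ptbp1b, ptbp2a and ptbp3. They were taken by symbol from the 31953 genes of the deposited count table, and all 4 were among the 23680 genes that passed the filter on low counts. The fifth gene of the family, ptbp2b, is given beside them for comparison. RNA came from whole larvae of the TLEK strain at 5 days after fertilization. The control group was wild type, and the other group was homozygous for a nonsense mutation in upf1, which encodes the central helicase of nonsense-mediated decay, by which cells destroy mRNAs whose reading frame ends too early. Each genotype had 4 polyA libraries, with between 75335048 and 96104507 counted reads in a library. The TMM scaling factors were 0.893 to 0.977 in wild types and 1.02 to 1.11 in mutants, so they separated by genotype, and all levels are given after this scaling. The labels give neither the position of the mutation, nor the number of larvae in a library, nor whether replicates came from separate clutches. The p-values therefore measure the spread between these libraries, which may be technical. Since whole larvae were used, fewer cells of a type and less RNA per cell cannot be told apart. The mutated gene upf1 itself stood at 285 ± 7.51 CPM (reads of a gene scaled to a common library size) in mutants and 129 ± 4.35 in wild types (SD, n = 4 each), which does not check the genotype labels, because a nonsense mutation need not lower its mRNA.

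Polypyrimidine tract binding proteins are RNA-binding proteins that attach to stretches of pyrimidines in introns and mostly repress the use of nearby exons. In mammals PTBP1 is found in most cells outside mature neurons, PTBP2 is the form of developing neurons, and PTBP3 is best known from blood cells. The mammalian proteins limit their own production and that of their paralogs. They cause a short exon in their own transcripts to be skipped, the reading frame shifts, and the shortened transcript carries a premature stop codon that makes it a target of nonsense-mediated decay. The levels and the splicing of these genes in wild type and upf1 mutant larvae are therefore described together.

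Transcripts of both genes related to mammalian PTBP1 were about 3-fold higher in upf1 mutants. The gene ptbp1a (ENSDARG00000019362, chromosome 2) was measured in wild types, replicates 1 to 4, at 57.2, 61.4, 58.3 and 49.8 CPM, and in mutants, in the same order, at 148, 147, 185 and 172 CPM. Every mutant lay far above every wild type. Its mean rose from 56.7 ± 4.92 to 163 ± 18.4 CPM (SD, n = 4 each), a 2.88-fold rise (log2 fold change 1.52, SE 0.103, adjusted p = 1.57e-05 by edgeR's quasi-likelihood test). The gene ptbp1b (ENSDARG00000031907, chromosome 11) was measured at 44.4, 50.1, 43.7 and 46.1 CPM in wild types and at 137, 132, 162 and 140 CPM in mutants. These groups did not overlap either, and in both genes mutant replicate 3 was the highest library. The mean of ptbp1b rose from 46.1 ± 2.88 to 143 ± 13.3 CPM (3.10-fold, log2 fold change 1.63, SE 0.0878, adjusted p = 3.73e-06 by edgeR).

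The gene ptbp2a (ENSDARG00000101947, chromosome 24), related to the neuronal mammalian PTBP2, rose less. It was measured at 18.6, 20.6, 20.8 and 23.8 CPM in wild types and at 46.5, 43.7, 43.8 and 46.4 CPM in mutants, again without overlap. The mean went from 20.95 ± 2.17 to 45.1 ± 1.55 CPM (2.15-fold, log2 fold change 1.11, SE 0.0866, adjusted p = 4.19e-05 by edgeR). Its paralog ptbp2b (ENSDARG00000015901, chromosome 2) went from 68.0 ± 4.18 to 223 ± 4.67 CPM (3.27-fold, log2 fold change 1.71, SE 0.0735, adjusted p = 9.53e-07 by edgeR).

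The gene ptbp3 (ENSDARG00000043757, chromosome 10) did not pass the threshold. It was measured at 19.7, 14.96, 22.5 and 19.9 CPM in wild types and at 16.8, 14.8, 16.6 and 12.7 CPM in mutants. The groups overlapped through wild type replicate 2, the lowest of its group. The log2 fold change was -0.34 (SE 0.139), with adjusted p = 0.139 over all genes and an unadjusted p = 0.0355 in edgeR. Without wild type replicate 2 the log2 fold change was -0.45 and the adjusted p = 0.0367 in edgeR, the only omission that gave a call. Leaving out the lowest wild type library necessarily widens a fall. Over all genes tested, this omission also raised the number lower at unadjusted p under 0.05 from 3101 to 3363 in edgeR. With another library left out, the adjusted p of ptbp3 reached 0.320 in edgeR.

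**Figure D1:**
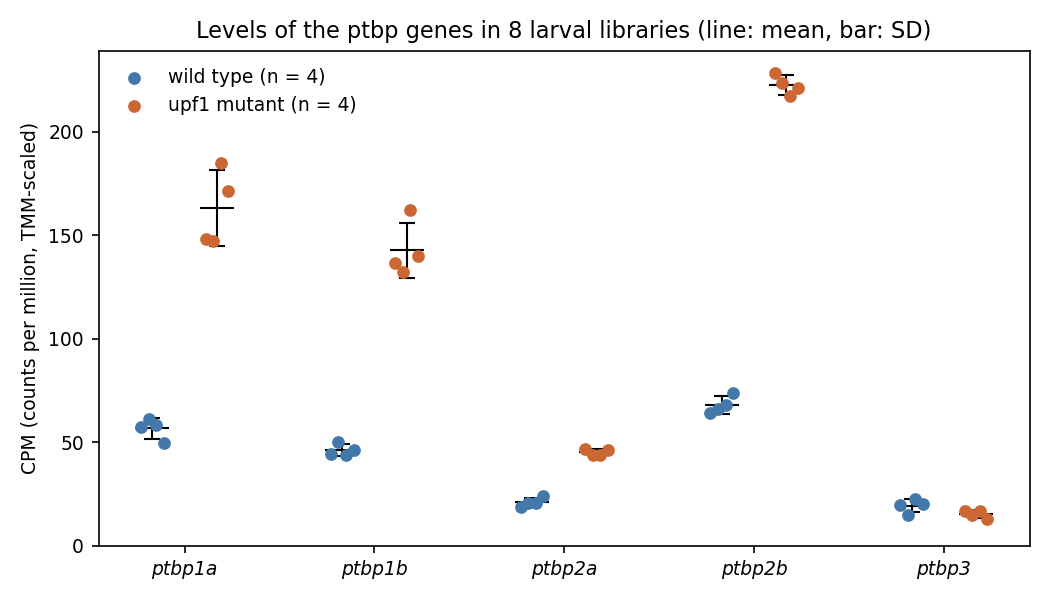
Levels of the 5 ptbp genes in CPM (vertical axis, from 0), 1 point per library, with the mean and SD of 4 wild type and 4 upf1 mutant libraries. The mutant points of ptbp1a, ptbp1b, ptbp2a and ptbp2b lie above all wild type points, with means of 163, 143, 45.1 and 223 CPM, while those of ptbp3 overlap.

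Thus 3 of the 4 members were called higher by edgeR and 0 lower. Over all genes tested, 9.12% were called higher, 5.16% lower and 14.3% in either direction. The groups did not overlap, with mutants above, for the same 3 members and for 12.4% of all genes. Against the 0 called lower, 1 member (ptbp3) had a lower level with p under 0.05 before adjustment in edgeR. Neither limma voom (0) nor DESeq2 (0) called any member lower. The log2 fold changes stayed between 1.46 and 1.57 for ptbp1a, 1.56 and 1.67 for ptbp1b, and 1.05 and 1.17 for ptbp2a when each library was left out in turn.

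The size of the rise was also compared between paralogs, a comparison added after the values were seen. Ratios of the counts of 2 genes within a library do not depend on library scaling, and were compared between genotypes with a two-sided exact permutation test for the 10 pairs of the family (p at its smallest possible value of 0.0286 when the groups separate, and Benjamini-Hochberg adjusted over the 10 pairs). The log2 ratio of ptbp1a to ptbp2a went from 1.44 ± 0.256 to 1.85 ± 0.176, a difference of 0.41 (SD, n = 4 each, exact p = 0.0286, adjusted p = 0.0408). The ratio of ptbp1b to ptbp2a differed by 0.52 and that of ptbp2a to ptbp2b by -0.60 (each exact p = 0.0286, adjusted p = 0.0408). In these libraries the ratio of ptbp2a to each of the other 3 rising genes was lower in every mutant than in every wild type. Each of the 4 rising genes also moved relative to ptbp3, by 1.44 for ptbp2a, 1.86 for ptbp1a and 1.96 for ptbp1b, while ptbp3 over ptbp2b moved by -2.05 (each exact p = 0.0286, adjusted p = 0.0408). Separation in these 4 pairs was largely settled beforehand by the fold changes above. The adjustment over 10 pairs includes them, and their small p-values lower the adjusted p-values of the ptbp2a pairs. An adjustment without the ptbp3 pairs was not run. The adjusted p of 0.0408 therefore cannot show that the ptbp2a pairs pass on their own. The separation of the ptbp2a pairs is given as a description only. Pairs that share a gene are not independent. No difference was detected between ptbp1a and ptbp1b (-0.11, exact p = 0.286, adjusted p = 0.317), ptbp1a and ptbp2b (-0.19, exact p = 0.171, adjusted p = 0.214) or ptbp1b and ptbp2b (-0.08, exact p = 0.429, adjusted p = 0.429). With 4 libraries a group, these tests do not show that those genes rose alike. Levels were not ranked between genes, because no transcript lengths were used here.

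The authors' deposited splicing tables hold 37768 events, of which 19 belong to the 4 members, 18 of them skipped exons and 1 a pair of mutually exclusive exons. None of the 4 had a listed retained intron or alternative 5′ or 3′ splice site. The headers number the library sets as 1 and 2, with 4 libraries in each, and do not give their genotypes, so the sets are named by number. Over 10962 other genes with at least 200 junction reads in the skipped exon table, the log2 ratio of reads in set 1 to set 2 had a Pearson correlation of 0.939 with the log2 fold change of mutants over wild types in the count table. This value is across genes, which are not independent replicates. Of the 45 such genes that were more than 4-fold higher in mutants, 45 had more reads in set 1, and of the 12 more than 4-fold lower, 12 had fewer.

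The 3 members that rose shared a skipped exon of 34 bases, a length that is no multiple of 3, and in each it was included far less in library set 1. In the authors' deposited table the inclusion level (the length-corrected share of junction reads that include the exon, from 0 to 1) of the ptbp1b exon was 0.218, 0.13, 0.144 and 0.15 in set 1. In set 2 of the authors' deposited table it was 0.771, 0.786, 0.789 and 0.805. The sets were far apart, with a difference of -0.627 and an FDR listed as 0. The ptbp1b exon lies at chr11:14276982-14277015 on the plus strand of build GRCz10.

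The ptbp1a exon, at chr2:26640784-26640817 on the plus strand, showed the same direction. Its inclusion level in the authors' deposited table was 0.413, 0.355, 0.456 and 0.443 in set 1 and 0.884, 0.863, 0.895 and 0.850 in set 2, a difference of -0.456 with an FDR listed as 0. The ptbp2a exon, at chr24:30906006-30906039 on the minus strand, had levels of 0.710, 0.851, 0.807 and 0.710 in set 1 and 1.0, 0.955, 0.947 and 0.977 in set 2 of the authors' deposited table. The sets of both exons were separate, and ptbp2a had the smallest difference of the family at -0.2 (FDR listed as 0). The ptbp2b exon, at chr2:20132713-20132746 on the plus strand, had a mean level of 0.242 in set 1 and 0.796 in set 2 of the authors' deposited table (difference -0.555, FDR listed as 0).

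**Figure D2:**
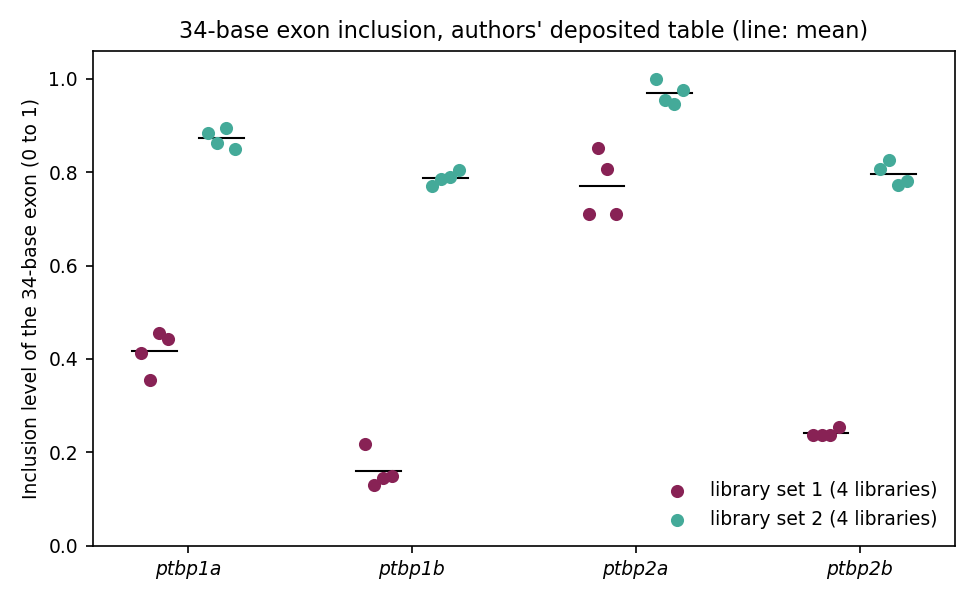
Inclusion level (vertical axis, 0 to 1) of the 34-base exon of 4 ptbp genes in the authors' deposited table, 1 point per library and a line at the mean of each library set of 4. Set 1 lies below set 2 in each gene, with differences of -0.456 (ptbp1a), -0.627 (ptbp1b), -0.2 (ptbp2a) and -0.555 (ptbp2b).

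Among 26312 skipped exon events of the authors' deposited table with at least 20 junction reads in every library, the ptbp1b exon ranked 17 by the size of the difference. In the same ranking of the authors' deposited table, ptbp2b ranked 26, ptbp1a 53 and ptbp2a 297. The exons have a further feature in common besides their length. In all 4 genes the exon that follows in the transcript is 93 bases long, while the listed exon before it is 161 bases in ptbp1a, 146 in ptbp1b, 77 in ptbp2a and 116 in ptbp2b. The authors' deposited table lists 39 different exons of 34 bases, of which 5 were called at an FDR under 0.05 with a level at least 0.2 lower in set 1. These were the 4 ptbp exons and 1 exon of jam2a, a comparison chosen after the values were seen. The length is that of the ptbp exons and the limit of 0.2 equals the ptbp2a difference. That the 4 ptbp exons passed was thus fixed beforehand. Without the limit, 10 of the 48 events with an exon of 34 bases were called in the authors' deposited table, against 8.79% of all skipped exon events. These 10 include the 4 ptbp exons from which the length was taken. They raise this share, so it is a description only.

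As a ratio, the sets differed far more in the reads that skip the exon than in those that include it. For ptbp1b, the authors' deposited table gives 166, 88, 132 and 117 inclusion junction reads in set 1 and 117, 149, 130 and 155 in set 2. Its skipping reads in the authors' deposited table numbered 413, 407, 541 and 460 in set 1 and 24, 28, 24 and 26 in set 2. Summed over a set, reads with the ptbp1b exon were thus about as many in both sets (ratio 0.913, from 503 and 551 reads), and reads without it were 17.9-fold more in set 1 (1821 and 102 reads). No scaling to library depth was applied to these reads.

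In each of the other genes, too, the ratio of skipping reads was larger than that of inclusion reads. For ptbp1a in the authors' deposited table, inclusion reads summed to 947 and 766 (ratio 1.24) and skipping reads to 904 and 76 (11.9-fold). For ptbp2a in the authors' deposited table, inclusion reads summed to 818 and 490 (ratio 1.67) and skipping reads to 174 and 11, of which 1 library of set 2 had 0 (15.8-fold). For ptbp2b in the authors' deposited table, inclusion reads summed to 1199 and 991 (ratio 1.21) and skipping reads to 2596 and 176 (14.75-fold). Inclusion reads of ptbp1a, ptbp1b and ptbp2b overlapped between the sets, those of ptbp2a did not, and skipping reads overlapped in none of the 4 genes.

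**Figure D3:**
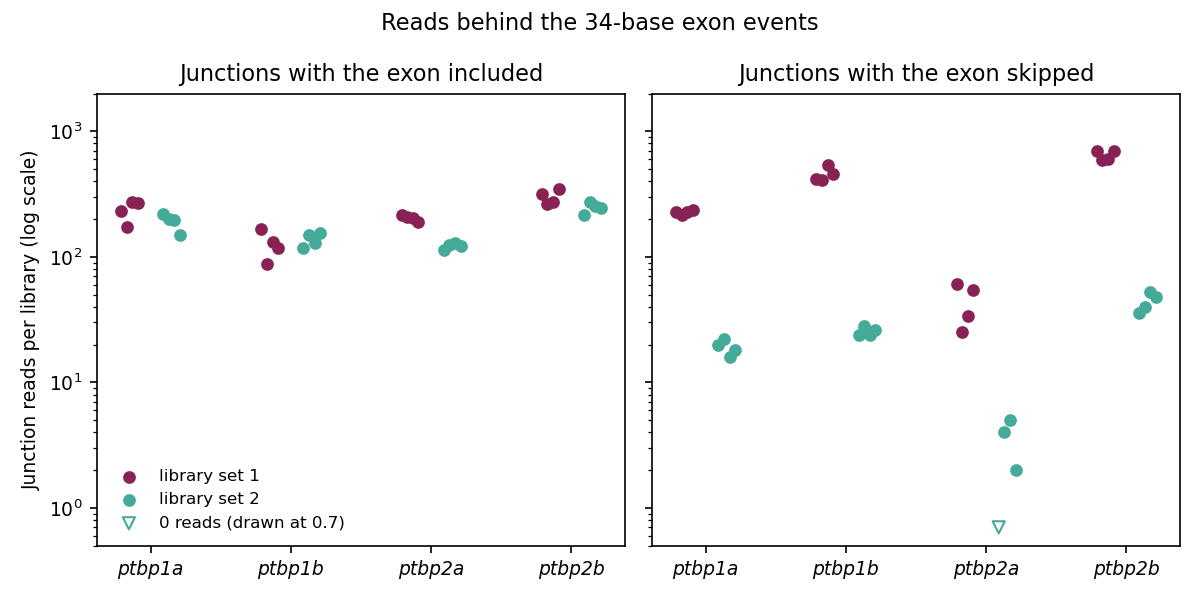
Junction reads per library (vertical axis, log scale) that include (left) or skip (right) the 34-base exon of 4 ptbp genes, for the 4 libraries of each set of the authors' deposited table, with an open triangle for a library at 0 reads. Set 1 over set 2, reads with the exon range from 0.913-fold in ptbp1b to 1.67-fold in ptbp2a, and reads that skip it are 11.9-fold to 17.9-fold more in set 1.

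The other listed exons of these genes give the comparison within the same transcripts. For the 4 other exons of ptbp1a, inclusion reads in the authors' deposited table were 2.83 to 3.42 times as many in set 1 as in set 2. The 1 other exon of ptbp2a gave a ratio of 2.02 in the authors' deposited table. The 34-base exon thus had the lowest ratio of inclusion reads among the listed exons of ptbp1a and of ptbp2a. None of these 5 exons was called in the authors' deposited table, and their levels differed by at most 0.004. The event with the most reads in ptbp1a, a 67-base exon, had levels of 1.0, 0.995, 1.0 and 1.0 in set 1 and 1.0 in all of set 2 in the authors' deposited table (FDR 1.0). That of ptbp2a, the 141-base exon, had levels of 1.0, 0.986, 1.0 and 1.0 in set 1 and 1.0 in all of set 2 in the authors' deposited table (FDR 1.0). Both were thus included almost without exception in every library.

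The gene ptbp1b had the most listed events, 10 skipped exons with 4 called. The 34-base exon is listed in a second flanking context as well. There the authors' deposited table has 168 and 194 inclusion reads, at most 1 skipping read in a library and no call (FDR 1.0). A skipping read in this context must also skip the 93-base exon that follows. That exon had mean levels of 0.9995 in set 1 and 1.0 in set 2 of the authors' deposited table. The second context therefore cannot show how often the 34-base exon alone was skipped. This exon and the rarely used 76-base exon below were then left out. The 7 other skipped exon events of ptbp1b had 2.45 to 5.20 times as many inclusion reads in set 1 as in set 2 of the authors' deposited table. Both ends of this range come from the 93-base exon after the 34-base exon and are not independent of the latter. The ratio of 2.45 counts the junction between these exons, and that of 5.20 counts the junction that skips the 34-base exon. The remaining events had ratios of 3.39 to 3.57 in the authors' deposited table. The event with the most reads, a 78-base exon, had levels of 1.0, 1.0, 0.997 and 1.0 in set 1 and 1.0, 1.0, 0.98 and 1.0 in set 2 of the authors' deposited table (FDR 1.0). Nor were the other uncalled events of ptbp1b far apart, with differences of at most 0.023 in either direction. Besides the 34-base exon, a 51-base exon at chr11:14264037-14264087 was called in 2 flanking contexts of the authors' deposited table. Its level averaged 0.872 in set 1 and 0.947 in set 2 in the context with more reads (FDR 5.58e-06), and 0.942 and 1.0 in the other (FDR 0.00495). The sets were separate in both, with differences of -0.075 and -0.058, and this exon's length is a multiple of 3. In the second of these contexts a skipping read must also skip the 31-base exon that follows. Such reads numbered 17 in set 1 and 0 in set 2 of the authors' deposited table. That context therefore cannot show how often the 51-base exon alone was skipped. A rarely used 76-base exon at chr11:14264689-14264764 averaged 0.024 in set 1 and 0.0095 in set 2 of the authors' deposited table (FDR 0.00300), with overlapping sets. The fourth listed library of set 1 held 61 of the 109 inclusion reads of that set in the authors' deposited table, and without it the difference of 0.015 became 0.00517. It was the only called event of the 4 members with a higher level in set 1. The mutually exclusive event of ptbp1b sets the 34-base exon against the 93-base exon after it, so it is no independent measurement of the first. Its mean level was 0.0538 in set 1 and 0.257 in set 2 of the authors' deposited table (difference -0.203, FDR listed as 0), and the sets were separate. Reads that skip the 93-base exon after the 34-base exon numbered 1 in set 1 and 0 in set 2 of the authors' deposited table. Where the 34-base exon was used, the 93-base exon thus followed it almost always, so these exons were hardly exclusive.

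In all, 6 of the 18 skipped exon events of the 4 members were called in the authors' deposited table, against 8.79% of all 30752 events of that class. The 1 mutually exclusive event was called, against 7.35% of 4366. Events of 1 gene share reads and exons, so these are not independent. The only listed event of ptbp3, a 140-base exon at chr10:11197330-11197469, had levels of 0.99, 0.948, 0.978 and 0.987 in set 1 and 0.974, 1.0, 0.991 and 0.981 in set 2 of the authors' deposited table. The sets overlapped and the event was not called (difference -0.011, FDR 1.0). The exon that follows it in ptbp3 is also 34 bases long, but is listed there as a flanking exon and not as a skipped one, so its inclusion was not measured.

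Some regulators that work with or against these proteins were also higher in mutants. Of 49 listed partners and competing regulators, 39 were matched to a gene and tested. Of these, 15 rose (38.5%, against 9.12% of all genes tested), 0 fell (against 5.16%) and 24 did not pass. The median log2 fold change was 0.12 against -0.007 over all genes tested. The paralog ptbp2b is among the 15. As the list was chosen with earlier results of these data known, its shares are a description only. Before adjustment, 2 of the listed genes had p under 0.05 and a lower level in edgeR. After adjustment limma voom called 0 lower and DESeq2 2. Those with the smallest adjusted p were hnrnph1, which encodes an RNA-binding protein of G-rich sites, ptbp2b, described above, and khdrbs1b, a relative of the mammalian splicing regulator Sam68. The gene hnrnph1 went from 18.3 ± 1.23 to 92.5 ± 4.45 CPM (5.06-fold, adjusted p = 3.42e-07 by edgeR), and khdrbs1b from 188 ± 3.07 to 454 ± 23.6 CPM (2.41-fold, adjusted p = 7.78e-06 by edgeR). Skipped exons of the list were called for 22 of 110 events (20%) in 16 of 34 genes in the authors' deposited table, against 8.79% of the whole class. The list includes ptbp2b, which held 6 of these events and 2 of the calls, among them its 34-base exon described above. Of the 22 called events 13 were lower in set 1. In the whole class the share was larger, with 2319 of the 2702 called skipped exons lower in set 1 in the authors' deposited table.

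Genes that carry exons controlled by these proteins, known mainly from mammals, moved little as a list. Of 64 entries 57 were matched and 56 tested, and 2 rose (3.57%, against 9.12% of all genes tested), 3 fell (5.36%, against 5.16%) and 51 did not pass (median log2 fold change -0.13). The death receptor gene fas rose from 0.955 ± 0.187 to 2.89 ± 0.352 CPM (3.03-fold, adjusted p = 6.05e-04 by edgeR). The pyruvate kinase gene pkma rose (log2 fold change 0.40, adjusted p = 0.0477 by edgeR). The synaptic fusion gene snap25a (-0.32, adjusted p = 0.0211), the tropomyosin gene tpm4a (-0.38, adjusted p = 0.0275) and the muscle transcription factor gene mef2ca (-0.38, adjusted p = 0.0380) fell by edgeR. The calls other than that of fas were lost when single libraries were left out. For pkma this held without wild type replicates 1, 3 or 4 or mutant replicates 2, 3 or 4, and for snap25a without wild type replicates 3 or 4 or mutant replicates 1 or 3. For tpm4a it held without any single wild type library or mutant replicate 1, and for mef2ca without wild type replicates 1, 3 or 4 or mutant replicates 1, 2 or 4. The adjusted p of these 4 genes then lay between 0.0508 and 0.129 in edgeR. Skipped exons of this list were called for 23 of 271 events (8.49%) in the authors' deposited table, close to the 8.79% of the whole class.

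**Figure D4:**
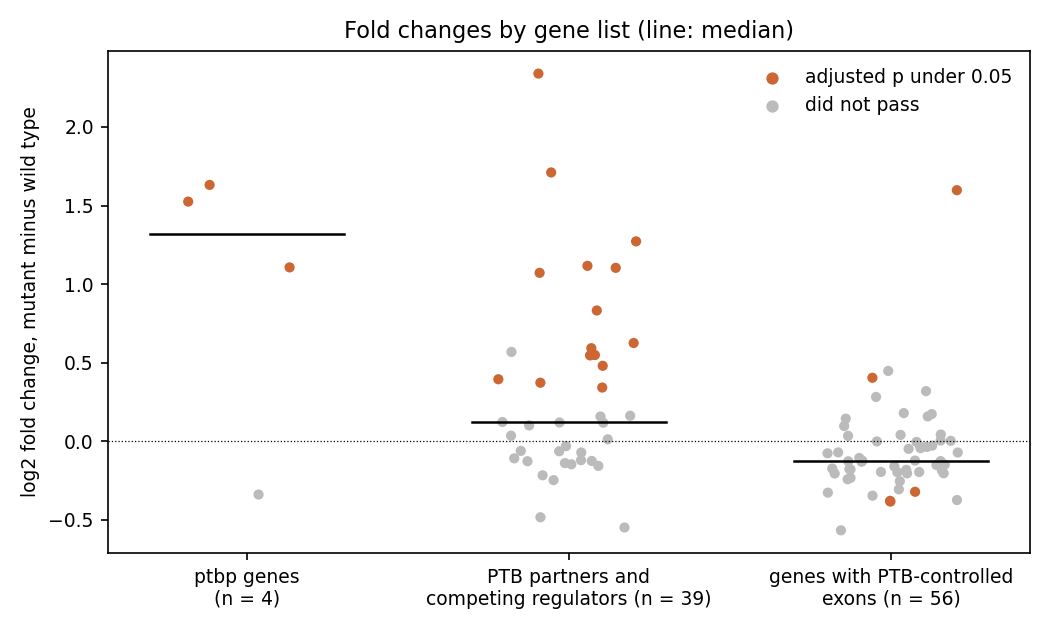
Log2 fold change (vertical axis, upf1 mutant minus wild type) of each tested gene in 3 lists, with called genes in colour and a line at the median. Of the 4 ptbp genes 3 are called higher, of the 39 partners and competing regulators 15 are, and of the 56 genes with controlled exons 2 are higher and 3 lower, with medians of 1.32, 0.12 and -0.13.

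Genes whose log2 CPM closely followed each member over the 8 libraries were found among 12668 others with a symbol and a mean log2 CPM of at least 3. Such correlations rest largely on the distance between the genotypes and are given as a description. For ptbp1a they included cnbpb (Pearson r = 0.996) and hnrnpub (0.995). For ptbp1b they included ZXDC (0.998) and vcpkmt (0.996), and for ptbp2a they were ccar1 (0.995), rbm5 (0.995) and SMG6 (0.995). For ptbp3 they were SIPA1L3 (0.992), dyrk4 (0.992) and mbnl3 (0.989), none of which passed the threshold in edgeR (adjusted p = 0.176, 0.146 and 0.0819).

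Markers of cell types that could hold ptbp RNA were present in every library, and no tested marker was at 0 counts in any library. Over all genes tested, edgeR called 9.12% higher and 5.16% lower. Of 11 neuron markers 3 fell by edgeR, and their summed level was 1505 to 1703 CPM in mutants and 1660 to 1818 in wild types. Of 13 proliferating cell markers 2 rose, and their sum was 872 to 1016 CPM in mutants and 590 to 897 in wild types. Of 10 radial glia and neural progenitor markers 1 rose, with sums of 1480 to 1832 CPM in mutants and 1388 to 1535 in wild types. The top of the mutant range is replicate 2, where glula was at 506 CPM, against 249 to 273 in the other mutants. Of 11 skeletal and cardiac muscle markers 3 fell, with sums of 41913 to 54361 CPM in mutants and 64243 to 83094 in wild types. Of 11 liver markers 4 fell and 1 rose, with sums of 3897 to 7121 CPM in mutants and 6657 to 9384 in wild types. The 6 erythrocyte markers summed to 646 to 1228 CPM in mutants and 972 to 1246 in wild types. The part of these shifts in the ptbp levels was not tested.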

How the data were processed

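The members and gene lists were chosen with earlier results of these data known. Per the submitters' processing notes, reads were processed on GRCz10 with tools that include featureCounts, STAR 2.5.2b and TopHat2 2.0.13, without saying which served which step. The deposited table holds raw gene counts. The deposited splicing tables give junction reads, inclusion levels and the authors' p-values with their FDR, under rMATS column names. Not given in the sources used here are the strand setting, the annotation release and the rMATS version. Reads of overlapping genes or close paralogs may be split.

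Symbols came from the splicing tables, else from a gene name table. Counts were tested with edgeR 4.0.16 (R 4.3.3): TMM, filterByExpr (minimum count 10, total 15), robust quasi-likelihood fit, genotype as the only term, Benjamini-Hochberg adjustment over all genes, threshold 0.05. SE is the log2 fold change divided by the root of its F statistic. The test was checked only on counts simulated from its own fitted means and dispersions, with independent libraries, so shared batches were not covered. Inclusion levels recomputed from the reads matched the deposited ones within 0.0005. Named genes were the members, upf1, ptbp2b, up to 3 risen and 3 fallen genes per list by adjusted p, and the 3 genes most like each member, some of which are not reported here. Ratios between paralogs were added after the values were seen. Alternatives were DESeq2 1.42.0, limma 3.58.1 voom, other scalings and filters, stricter splicing rules, omission of each library, and a replicate block. The transcript table and per-length levels were not used here, for want of a map or lengths.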

Additional observations from a re-analysis of the deposited data

Results flagged for a closer look

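Of 30 groups of 4 values tested for a value far from the others, 2 were flagged, and chance flags about 1 in 20. In the authors' deposited table, 1 library of set 2 had an inclusion level of 0.033 for the 76-base exon of ptbp1b, against 0.0, 0.005 and 0.0 in the others of that set. In the same deposited table, 1 library of set 1 had a level of 0.255 for the 34-base exon of ptbp2b, against 0.237 in each of the other 3.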

How the results depend on the processing

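The calls of ptbp1a, ptbp1b and ptbp2a held under every alternative run, and 3 members were higher in each. That of ptbp3 was gained only without wild type replicate 2 (log2 fold change -0.45, range -0.45 to -0.26 over the libraries left out), so that 0 to 1 members were lower. All 90 recomputed differences of called ptbp events, from summed reads or without 1 library, kept their direction. Where the sets were separate, leaving out 1 library could not have reversed it. Each difference moved by no more than the larger SD within a library set. Leaving out 1 of 4 libraries can never exceed that limit, so for the omissions it is no check of stability. The difference of the 76-base exon of ptbp1b went from 0.015 to 0.00517 without 1 library of set 1. The 7 called events of the members were 4 when a level difference of at least 0.1 was also required.

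Over all genes, 2107 were lower with the DESeq2 Wald test, against 1223. Leaving out libraries gave 1435 to 2267 higher (main count 2159) and 675 to 1279 lower. Of the partners, 1 was lower with DESeq2 size factors, with upper-quartile scaling and with no filter, 2 with the DESeq2 Wald test, and 0 to 2 without single libraries. Of the genes with controlled exons, 1 was higher with DESeq2 size factors, upper-quartile scaling or no filter, and 1 to 2 without single libraries, while 9 were lower with the DESeq2 Wald test and 0 to 5 without single libraries. The cause of these shifts was not tested.

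With the replicate number as a replicate block, 1379 genes were higher and 666 lower, 1 gene with controlled exons was higher, and the ptbp1b log2 fold change was 1.63 (adjusted p = 6.29e-04 in edgeR). No pairing by number was seen: deviations of same-numbered libraries correlated at -0.067 to 0.0345, and 1 of 4 wild types correlated best with the mutant of its own number. Whether same-numbered libraries shared a clutch or a preparation was not tested. The block ended the calls of pkma (adjusted p = 0.0743 in edgeR) and snap25a (0.0807). Transcripts in the deposited sleuth table, levels per length and a permutation test of inclusion levels between genotypes were not run, the last because the headers do not tie a library set to a genotype.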
